A study of Mus musculus with 8 samples.

Results

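*Entpd1*, *Nt5e*, *Adora2a*, *Dpp4* and *Ada* encode surface enzymes, a receptor and a clearing enzyme of the extracellular adenosine pathway, and were measured by RNA-seq in regulatory (Tregs) and conventional (Tconvs) CD4+ T cells. The 5 genes were chosen by name from a table of 52636 rows. Each is on 1 row, and all 5 had values high enough to be among the 12798 genes tested. The cells came from the spleens of mice aged 6 to 8 weeks, and both kinds of mice carried a Foxp3 eGFP reporter and were heterozygous for CD27 (CD27+/-). The controls had no other modification, whereas CD11c-*Cd70*tg;CD27+/- mice (CD70Tg) also carried a transgene for CD70, which is the ligand of CD27 and was put under the CD11c promoter, so that CD27 on T cells is engaged without intentional antigen. Tregs were sorted as CD3+ CD4+ GFP+ and Tconvs as CD3+ CD4+ GFP- cells, with 200000 cells and 2 libraries for each of the 4 groups, 8 libraries in all. The sample labels do not say whether the 2 libraries of a group came from separate mice, so that p-values measure only the spread between these libraries.

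ATP that leaves activated or damaged cells is a danger signal for the immune system. CD39, the product of *Entpd1*, removes phosphates from ATP and ADP to leave AMP, and CD73, the product of *Nt5e*, turns AMP into adenosine. Adenosine acts on the Gs-coupled receptor encoded by *Adora2a*, which raises cyclic AMP and restrains T cell activation, while adenosine deaminase (*Ada*) converts adenosine to inosine. *Dpp4* encodes CD26, a surface peptidase that anchors adenosine deaminase on human T cells, a binding the mouse protein is known to lack. Mouse Tregs are known for carrying CD39 and CD73 together.

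In mm10, *Entpd1* (ENSMUSG00000048120) is on the forward strand of chromosome 19 between 40612366 and 40741602, and *Nt5e* (ENSMUSG00000032420) on the forward strand of chromosome 9 between 88327197 and 88372092. *Adora2a* (ENSMUSG00000020178) is on the forward strand of chromosome 10 between 75316877 and 75334784. Chromosome 2 carries both *Dpp4* (ENSMUSG00000035000), between 62330073 and 62412231, and *Ada* (ENSMUSG00000017697), between 163726584 and 163750239, each on the reverse strand. All are protein-coding genes, and values per kb below refer to their exonic lengths in GENCODE M21, which are 5.58 kb for *Entpd1*, 8.602 kb for *Nt5e*, 3.062 kb for *Adora2a*, 6.319 kb for *Dpp4* and 2.002 kb for *Ada*. These lengths join all annotated exons of a gene, and the transcripts present in these cells may be shorter. Ratios and orders of different genes per kb depend on them. Only *Dpp4* shares exonic bases with another gene, the antisense *Gm13561*, over 232 bases (3.7% of its exonic length). The sources do not state whether counting used strand, but *Gm13561* had a mean value of only 12.2.

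*Entpd1* had the largest response to the transgene of the 5 genes, and the 250 bases before the start of its protein-coding transcript at 40659770 are shown for that reason. They were taken from RefSeq (GRCm38.p6), lie at chr19:40659520-40659769 on the forward strand and overlap no annotated exon.

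Entpd1 promoter: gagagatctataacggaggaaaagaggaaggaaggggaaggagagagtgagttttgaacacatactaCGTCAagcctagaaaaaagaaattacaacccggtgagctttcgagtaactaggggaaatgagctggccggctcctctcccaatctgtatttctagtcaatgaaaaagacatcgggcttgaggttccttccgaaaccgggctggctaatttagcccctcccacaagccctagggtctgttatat

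The capitals mark a match to the core letters of the cyclic AMP response element, TGACG or its reverse complement, 183 bases before the start. Of 32851 mouse promoter windows of this length, 17.8% hold these letters. The same search found no match in this window to letters of T-box (GGTGTGA), NF-kB (GGNATTTCC), AP-1 (TGANTCA), STAT (TTCNNNGAA), hypoxia response (ACGTG), RUNX (TGTGGT) or GC box (GGGCGG) motifs, which 3.33%, 1.06%, 6.75%, 7.02%, 16.6%, 14% and 32.7% of windows hold. A match is a description of the letters and not of a bound site. A further start of *Entpd1*, at 40612366, has 1 match to these letters as well, 135 bases before it, in a window that runs into the first exon of the neighbouring *Tctn3*. RefSeq windows were matched for 4 of the 5 genes. That of *Nt5e*, which lies wholly within an exon of the longer GENCODE model of the gene, had 4 matches to the GC box, that of *Ada* 1 to the GC box and 1 to the STAT letters, and that of *Dpp4* none to any of these motifs.

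Values are reads per gene scaled by the authors to 20 M per library, so that 20 is worth 1 read per M. From the step between low values, between 1.92 and 33.28 M reads on genes lie behind a library, the 4 Treg libraries being the shallowest with 1.92 to 4.57 M. The value that 3 reads give was between 1.8 and 31.2, and every value of the 5 genes was above it. Such floors cover counting error only. The sort is visible in *Foxp3*, the Treg lineage factor, which was between 19769 and 21367 in the Treg libraries and between 1039 and 1497 in the Tconv libraries. Libraries of a group are called first and second by their order in the table.

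**Figure D1:**
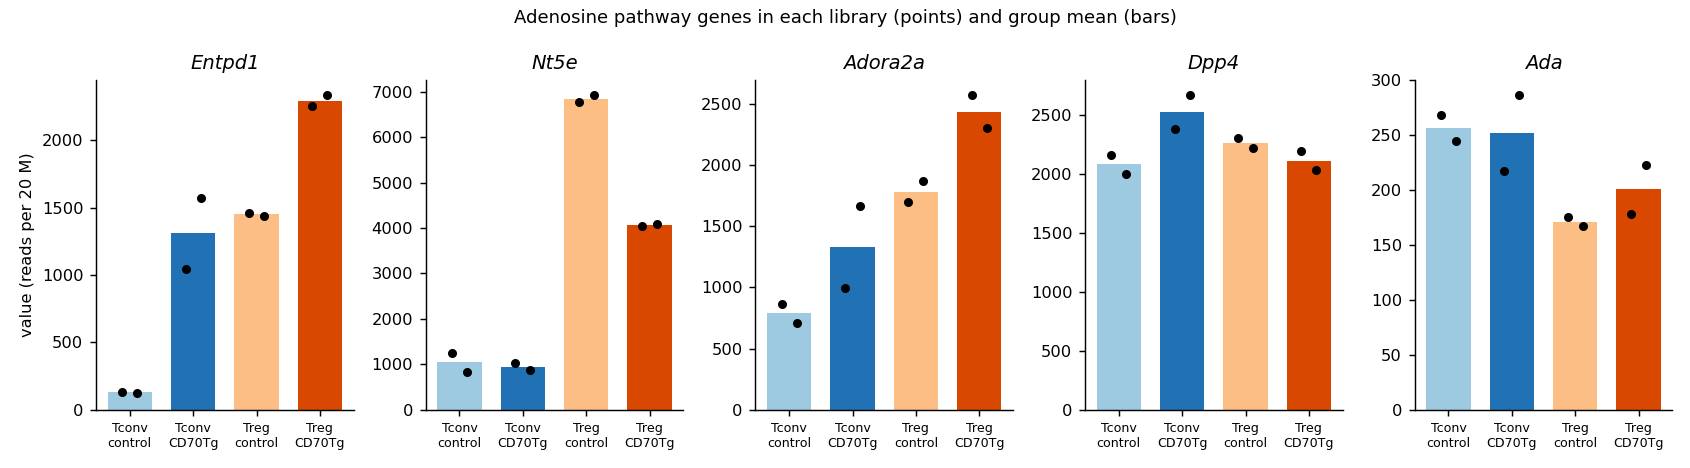
Values of the 5 genes (y axis, reads per 20 M, from 0) in each of the 8 libraries (points) and their group means (bars), in Tconvs and Tregs of control and CD70Tg mice. *Entpd1* in CD70Tg Tconvs (1046 and 1573) lies near the control Treg libraries (1461 and 1441), and *Nt5e* is lower in CD70Tg than in control Tregs.

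*Entpd1*, the first enzyme of the pathway, was low in control Tconvs and rose 9.65-fold there in CD70Tg mice, to values on either side of those of control Tregs. Its value was 133 and 124 in the control and 1046 and 1573 in the CD70Tg Tconv libraries, which gives 128.5 ± 6.36 and 1309.5 ± 373 (SD, n = 2 each). Both CD70Tg libraries were well above both controls, although the second was higher than the first by more than their counting error of 2.0% and 5.2%. The log2 fold change was 3.27 with a SE of 0.17 (limma, adjusted p = 1.8e-09), on the scale of log2(value + 5), and it ranked 57 of the 12798 genes by size of increase. In Tregs *Entpd1* was 1461 and 1441 in control and 2257 and 2333 in CD70Tg libraries, or 1451 ± 14.1 and 2295 ± 53.7 (SD, n = 2 each). The groups do not overlap, and the increase was 1.58-fold (log2 fold change 0.66, SE 0.17, limma adjusted p = 0.028).

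The Treg increase in *Entpd1* has less support than the Tconv one. Its adjusted p was between 0.00032 and 0.17 over the 18 alternatives, and it missed 0.05 when any 1 Treg library was left out (0.12 to 0.17). The difference between both responses was itself tested, and the log2 fold change of *Entpd1* in Tregs minus that in Tconvs was -2.61 (SE 0.24, limma adjusted p = 3.5e-05). Such a difference passed at an adjusted p under 0.05 in 1.02% of all genes tested, and in 1 of the 5 genes described here. In RNA from whole sorted populations, more cells that transcribe a gene and more RNA per cell cannot be told apart.

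*Entpd1* is also transcribed by Tregs, B cells and macrophages, so their markers are given beside its value in Tconvs. As a percentage of the Treg mean of the same kind of mice, *Entpd1* was at 9.17% and 8.55% in control Tconvs and *Foxp3* at 5.21% and 7.51%. In CD70Tg Tconvs *Entpd1* was at 45.6% and 68.5%, while *Foxp3* was at 5.51% and 6.05%. The summed value of 7 Treg markers was 5717 and 5938 in control and 5933 and 7627 in CD70Tg Tconvs. *Ctla4*, an inhibitory receptor among them that activated T cells also carry, was 493 and 496 in control and 663 and 1090 in CD70Tg Tconvs. Its log2 fold change was 0.78 (limma adjusted p = 0.0059). *Il2ra* went the other way, from 599 and 965 to 548 and 488 (-0.55, adjusted p = 0.053). *Nrp1* had 0.55 (adjusted p = 0.051), *Tnfrsf18* 0.28, *Ikzf4* 0.21, *Ikzf2* 0.19 and *Foxp3* -0.02, and none of these passed.

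Of other cells, 7 B cell markers summed to 182 to 190 in control and to 70 to 93 in CD70Tg Tconvs, with *Ms4a1* and *Pax5* at 0 in the first CD70Tg library. The 10 macrophage and dendritic cell markers summed to 1591 to 1776 in control and 1191 to 1734 in CD70Tg Tconvs, and neither sum exceeded that of its highest control library. The dendritic cell members of this list differed in direction. Higher with the transgene were *Itgax* (CD11c) at 31 and 57 and then 101 and 236 (log2 fold change 1.76, limma adjusted p = 0.015), *Zbtb46* at 9 and 5 and then 15 and 38 (1.31, adjusted p = 0.1) and *Xcr1* at 7 and 26 and then 49 and 56 (not tested). Lower were *Flt3*, at 13 and 17 and then 12 and 7, and *Siglech*, at 6 and 28 and then 0 and 3, both too low to test. *Cd8a* and *Cd8b1* summed to 681 to 720 in control and 1563 to 1590 in CD70Tg Tconvs, and to 317 to 417 and 631 to 660 in Tregs. *Cd8a* rose from 17 and 28 to 508 and 608 in Tconvs (log2 fold change 4.38, limma adjusted p = 9.7e-07) and in Tregs (2.37, adjusted p = 0.0012), and *Cd8b1* by less in Tconvs (0.58, adjusted p = 0.038), with 0.34 in Tregs (adjusted p = 0.26). The 6 markers of naive T cells summed to 122818 to 126268 in control Tconvs, 116812 in the first and 88804 in the second CD70Tg Tconv library, the one with the highest *Entpd1* of this subset. NK cell markers, nearly all from *Klrb1c*, summed to 405 to 423 and then 71 to 75. Stromal and endothelial markers summed to 4696 to 4862 and then 4987 to 5309. Nearly all of this came from *Pecam1*, at 4620 and 4468 and then 5077 and 4759. The part of any of these cells, Tregs included, in the result was not tested.

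*Nt5e*, which encodes the enzyme that completes the production of adenosine, was by far highest in Tregs and fell there in CD70Tg mice. Control Treg libraries had 6765 and 6918, and CD70Tg Treg libraries 4044 and 4089, or 6841.5 ± 108 and 4066.5 ± 31.8 (SD, n = 2 each). Replicates differed by little beside the distance between the groups. The decrease was 1.68-fold (log2 fold change -0.75, SE 0.16, limma adjusted p = 0.0079). In Tconvs the values were 1257 and 831 in control and 1029 and 865 in CD70Tg libraries, and both CD70Tg values lie between the controls. The log2 fold change there was -0.11, with a 95% interval from -0.45 to 0.22 (limma adjusted p = 0.79).

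The decrease of *Nt5e* in Tregs was between -0.77 and -0.71 (log2) over the 18 alternatives, yet without any 1 Treg library its adjusted p was 0.051 to 0.065, and with no minimum value 0.095. The difference between the Treg and Tconv responses, -0.63 (SE 0.22), did not pass (limma adjusted p = 0.26). Without the first control Tconv library it was -0.93 and passed (adjusted p = 0.015). The *Nt5e* decrease is therefore not shown to differ from the Tconv response. Marker sums of the Treg libraries differed too. The 7 Treg markers summed to 78969 and 77842 in control and 71417 and 71408 in CD70Tg Tregs. Among them *Il2ra* was 23490 and 19497 and then 14398 and 14659 (log2 fold change -0.56, limma adjusted p = 0.056). The other Treg markers had log2 fold changes of 0.09 (*Foxp3*), -0.05 (*Ikzf2*), 0.09 (*Ikzf4*), -0.28 (*Ctla4*), 0.19 (*Tnfrsf18*) and -0.07 (*Nrp1*), and none passed. The 6 naive T cell markers summed to 55169 and 47544 and then 44680 and 45001. Neutrophil markers summed to 5 and 10 in control and 233 and 204 in CD70Tg Tregs, erythroid markers to 269 and 711 and then 1841 and 1133, and B cell markers to 264 and 410 and then 484 and 460. NK cell markers, all from *Klrb1c* (log2 fold change -2.57, limma adjusted p = 0.0035), summed to 64 and 36 and then 0 and 11. These CD70Tg values are below the 31.2 and 16.3 that 3 reads give. Macrophage and dendritic cell markers summed to 3906 and 3749 and then 3494 and 3295, with *Siglech* at 0 in both control libraries. Within this list *Csf1r* of macrophages fell (log2 fold change -0.67, limma adjusted p = 0.029), while *Zbtb46* of dendritic cells rose from 25 and 27 to 209 and 191 (2.72, adjusted p = 0.0017). *Xcr1*, also of dendritic cells and too low to test, was 10 and 18 in control and 63 and 33 in CD70Tg Tregs, and *Lyz2* 641 and 872 and then 1181 and 1077 (0.59, adjusted p = 0.072). The part of these cells and markers in the Treg results was not tested.

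**Figure D2:**
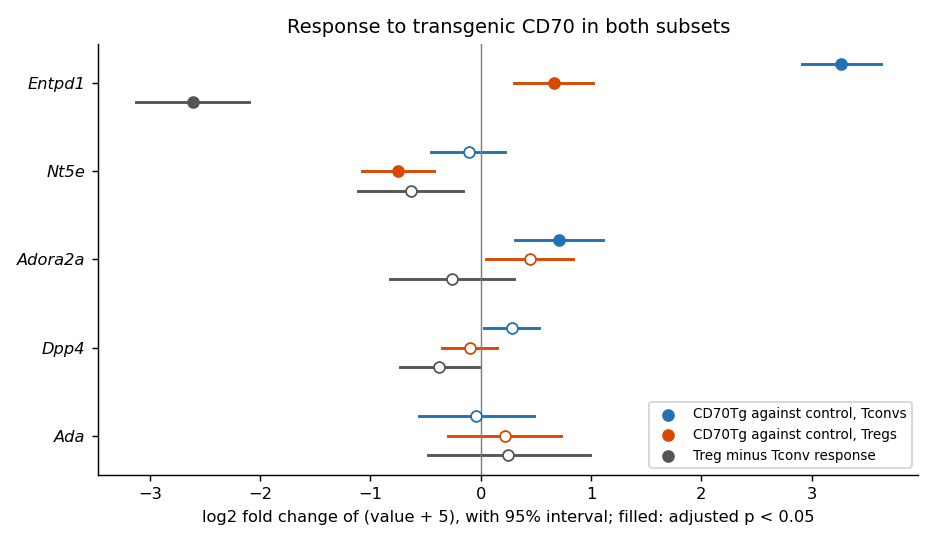
Log2 fold changes (x axis, log2 of value + 5) of the 5 genes with 95% intervals, for CD70Tg against control in Tconvs and in Tregs and for the Treg minus the Tconv response. Filled points have an adjusted p under 0.05. *Entpd1* alone has a difference between the subsets that passed, at -2.61, and *Nt5e* in Tregs is the only decrease that passed.

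Both ectoenzymes act in sequence, and the ratio of their transcripts was lower in CD70Tg than in control libraries of either subset. Per kb, *Nt5e* was 6.13 and 4.35 times as abundant as *Entpd1* in control Tconvs and 0.638 and 0.357 times in CD70Tg Tconvs. In Tregs the ratio was 3.0 and 3.11 in control and 1.16 and 1.14 in CD70Tg libraries. In neither subset do the groups overlap, and no test of this ratio was made. In Tregs both of its terms passed the test above, and in Tconvs *Entpd1* did.

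**Figure D3:**
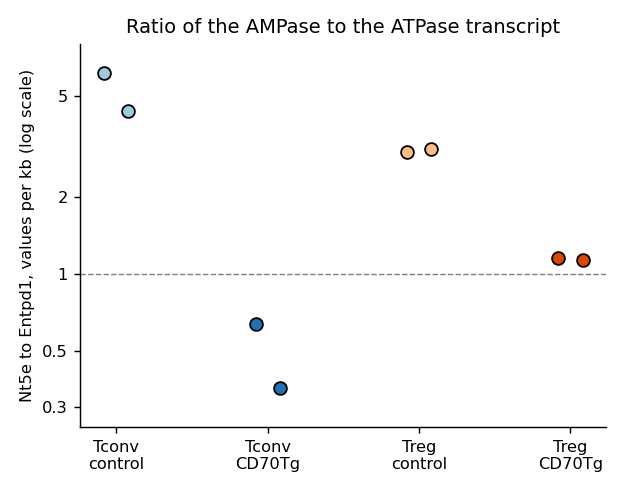
Ratio of *Nt5e* to *Entpd1* in values per kb (y axis, log scale) in each library, by group. The dashed line marks equal values per kb. The ratio was above 4 in control Tconvs, about 3 in control Tregs, just over 1 in CD70Tg Tregs and under 1 in CD70Tg Tconvs.

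*Adora2a*, the receptor through which adenosine raises cyclic AMP, was higher in CD70Tg than in control libraries of both subsets, and passed the test in Tconvs. In Tconvs it was 867 and 710 in control and 994 and 1665 in CD70Tg libraries, or 788.5 ± 111 and 1329.5 ± 474 (SD, n = 2 each). The first CD70Tg library lies just above the controls and the second far above. The log2 fold change was 0.71 (SE 0.19, limma adjusted p = 0.023). This rests on the second library, since without it the log2 fold change was 0.34 and the adjusted p 0.31. Without the second control Tconv library it was 0.57 (adjusted p = 0.17), and it also missed the threshold with no minimum value (0.27) and with the 4 Tconv libraries alone (0.05). In Tregs *Adora2a* was 1699 and 1870 in control and 2571 and 2306 in CD70Tg libraries, with no overlap. The log2 fold change of 0.45 (SE 0.19, 95% interval 0.05 to 0.84) did not pass in the model over 8 libraries (limma adjusted p = 0.17). It passed in 3 of 18 alternatives, with the 4 Treg libraries alone (0.008) and without the first (0.038) or second (0.04) CD70Tg Tconv library. The 2 responses differed by -0.26 (SE 0.26, limma adjusted p = 0.8).

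*Dpp4*, the peptidase CD26, was between 1997 and 2665 in all 8 libraries and passed no test in the main model. Values were 2162 and 1997 in control and 2380 and 2665 in CD70Tg Tconvs, and 2300 and 2220 in control and 2195 and 2029 in CD70Tg Tregs. The groups do not overlap in either subset, but the distances are small. The log2 fold change was 0.28 in Tconvs (95% interval 0.03 to 0.53, limma adjusted p = 0.2) and -0.10 in Tregs (-0.35 to 0.15, adjusted p = 0.69).

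*Ada*, the enzyme that removes adenosine, had the lowest values of the 5 in Tregs. It was 268 and 245 in control and 217 and 286 in CD70Tg Tconvs, so that the CD70Tg values enclose the controls. In Tregs it was 175 and 167 in control and 178 and 223 in CD70Tg libraries. Only 17 to 41 reads stand behind each Treg value, which gives a counting error of 15.6% to 24.3%. The log2 fold change was -0.04 in Tconvs (95% interval -0.56 to 0.48, limma adjusted p = 0.96) and 0.22 in Tregs (-0.30 to 0.73, adjusted p = 0.67). Changes within these intervals cannot be told from none with these libraries.

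Of these 5 genes, 2 passed at an adjusted p under 0.05 in Tconvs, against 8.8% of all genes tested, and 2 in Tregs, against 7.4%. With an absolute log2 fold change over 1 required as well, 1 was called in Tconvs, against 4.64% of all genes, and 0 in Tregs, against 3.6%. The log2 fold changes of the 5 had a median of 0.28 in Tconvs and 0.22 in Tregs, where the medians of all genes tested were 0.01 and -0.05.

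Tregs and Tconvs differed in the pathway before any transgene. In control mice *Entpd1* was 10.9-fold higher in Tregs (log2 fold change 3.45, SE 0.17, limma adjusted p = 2.9e-10), *Nt5e* 6.67-fold higher (2.74, SE 0.16, adjusted p = 1.3e-09) and *Adora2a* 2.26-fold higher (1.18, SE 0.19, adjusted p = 9e-05). *Dpp4* differed by 0.12 (adjusted p = 0.42) and *Ada* by -0.57 (adjusted p = 0.067). Thus 3 of the 5 passed and the same 3 were called, where 45.9% of all genes passed and 19.2% were called between the subsets. In CD70Tg mice the distance between the subsets was smaller for *Entpd1*, which was 1.79-fold higher in Tregs (0.84, SE 0.17, adjusted p = 0.0011). *Nt5e* was 4.29-fold higher (2.10, adjusted p = 4.8e-08) and *Adora2a* 1.89-fold higher (0.92, adjusted p = 0.001). *Dpp4* differed by -0.25 (adjusted p = 0.092) and *Ada* by -0.32 (adjusted p = 0.32). There 3 of the 5 passed and 1, *Nt5e*, was called, against 42.7% and 17.2% of all genes. These comparisons share libraries with those of the transgene.

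The order of the 5 transcripts by level per kb differed between the groups. In control Tconvs it was *Dpp4* (329 ± 18.5 per kb), *Adora2a* (258 ± 36.3), *Ada* (128 ± 8.12), *Nt5e* (121 ± 35.0) and *Entpd1* (23.0 ± 1.14), and *Ada* and *Nt5e* did not differ beyond their spread. In CD70Tg Tconvs *Adora2a* (434 ± 155 per kb) and *Dpp4* (399 ± 31.9) were not separated, followed by *Entpd1* (235 ± 66.8), and by *Ada* (126 ± 24.4) and *Nt5e* (110 ± 13.5), also not separated. Control Tregs had *Nt5e* first (795 ± 12.6 per kb), then *Adora2a* (583 ± 39.5), *Dpp4* (358 ± 8.95), *Entpd1* (260 ± 2.53) and *Ada* (85.4 ± 2.83), all apart from each other. In CD70Tg Tregs *Adora2a* (796 ± 61.2 per kb) had passed *Nt5e* (473 ± 3.7), and *Entpd1* (411 ± 9.63) had passed *Dpp4* (334 ± 18.6), while *Ada* was again last (100 ± 15.9). All errors are SD with n = 2. *Entpd1* thus went from the last place in control Tconvs to the third in CD70Tg Tconvs.

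The rest of the purine pathway was followed in 93 further genes in 9 lists, of which 65 could be tested. In Tconvs 5 of them rose and 4 fell at an adjusted p under 0.05, and in Tregs 2 rose and 4 fell, where 8.8% and 7.4% of all genes tested passed. The same shares stand beside the counts of passes in the single lists below. The median log2 fold change of the 65 was 0.01 in Tconvs and -0.05 in Tregs, the same as over all genes tested. Of these 15 passes and 1 in the difference between the subsets, 4 held when any 1 library was left out and 12 did not, and the libraries that decide a value are given with it. With the fold threshold, 1 was called higher and 3 lower in Tconvs, and 1 lower in Tregs, against 4.64% and 3.6% of all genes. Over all genes, 521 were called higher and 73 lower in Tconvs, and 323 higher and 138 lower in Tregs.

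Among 4 tested ectonucleotidases other than the 2 above, *Cd38* had the largest response in Tconvs. It encodes a surface enzyme that breaks down NAD+. *Cd38* was 113 and 141 in control and 793 and 1302 in CD70Tg Tconvs, a log2 fold change of 2.96 (SE 0.22, limma adjusted p = 1.4e-07). In Tregs it was 471 and 447 in control and 554 and 609 in CD70Tg libraries (0.34, adjusted p = 0.42). The difference between the responses, -2.62 (SE 0.32), passed (adjusted p = 0.00041), and *Cd38* was the only one of the 65 genes for which it did. In CD70Tg mice *Cd38* was lower in Tregs than in Tconvs (-0.80, adjusted p = 0.0087), where *Entpd1* was higher in Tregs. *Enpp1*, a surface pyrophosphatase that makes AMP from ATP, rose in Tconvs from 376 and 247 to 510 and 622 (log2 fold change 0.87, adjusted p = 0.014), but not without the second control (adjusted p = 0.21) or second CD70Tg library (0.14). *Alpl*, a phosphatase, was called lower in Tconvs at values of 24 and 26 against 0 and 8, too low for a firm fold, and its adjusted p of 0.042 went up to 0.14 with a pseudocount of 20 or without the first control library, 0.19 without the second control and 0.27 without the first CD70Tg library. *Acpp*, a phosphatase that can also make adenosine from AMP, was the reverse of *Nt5e* between the subsets, with 473 and 342 in control Tconvs and 49 and 106 in control Tregs (log2 fold change -2.40, adjusted p = 2.8e-05).

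**Figure D4:**
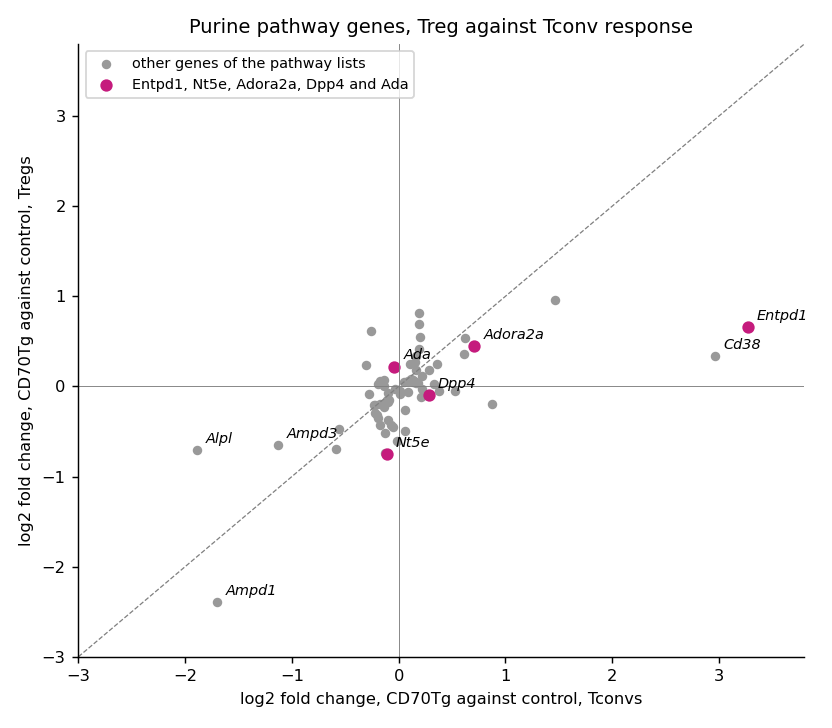
Log2 fold changes of CD70Tg against control in Tconvs (x axis) and Tregs (y axis) for the 5 genes (purple) and 65 other tested genes of the purine pathway (grey), with the line of equal change dashed. *Entpd1* (3.27 and 0.66) and *Cd38* (2.96 and 0.34) lie far right of the line, and *Ampd1* (-1.70 and -2.39) is low in both subsets.

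Of 17 tested enzymes that use adenosine or salvage purines inside the cell, 2 that deaminate AMP fell. *Ampd1*, AMP deaminase of the muscle type, was 422 and 429 in control and 165 and 98 in CD70Tg Tconvs (log2 fold change -1.70, SE 0.37, limma adjusted p = 0.0058), and 122 and 110 in control and 11 and 28 in CD70Tg Tregs (-2.39, SE 0.37, adjusted p = 0.00068). In Tconvs the adjusted p was 0.057 without the second control and 0.11 without the second CD70Tg library. Of the Treg values, 11 is below the 31.2 that 3 reads give in that library and 28 above the 16.3 in the other, so that the size of this decrease is uncertain, and with limma-voom on reads the adjusted p was 0.11. *Ampd3*, the red cell form, was 620 and 545 in control and 283 and 245 in CD70Tg Tconvs (-1.13, adjusted p = 0.0017). In Tregs it was 597 and 513 against 293 and 419, and did not pass (-0.65, adjusted p = 0.069). None of the 17 rose. *Ampd2*, the form of most tissues, had log2 fold changes of -0.09 and -0.15 in Tconvs and Tregs (adjusted p = 0.83 and 0.6), and adenosine kinase, *Adk*, of -0.17 and -0.19 (adjusted p = 0.61 and 0.48).

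*Slc29a1*, the equilibrative nucleoside transporter that takes up adenosine, fell in Tregs from 1791 and 1585 to 1129 and 898 (log2 fold change -0.74, SE 0.17, limma adjusted p = 0.012), and was the only one of 4 tested transporters that passed in either subset. Its adjusted p was 0.15 without the first control, 0.12 without the second CD70Tg Treg library and 0.099 with limma-voom. In control mice it was higher in Tregs than in Tconvs (0.51, adjusted p = 0.02). *Slc29a4* had the largest log2 fold change of the transporters in Tconvs, 1.46, from 22 and 13 to 38 and 80, and did not pass (adjusted p = 0.1). *Slc17a9*, which loads ATP into vesicles, fell in Tregs from 1165 and 1494 to 795 and 843 (-0.69, adjusted p = 0.031), and had -0.59 in Tconvs (adjusted p = 0.055). *Lrrc8a*, a subunit of volume-regulated channels, fell in Tconvs from 1667 and 1302 to 902 and 1096 (-0.56, adjusted p = 0.029), and had -0.47 in Tregs (adjusted p = 0.076). *Slc17a9* in Tregs did not pass without any 1 Treg library (0.059 to 0.29) or with median-of-ratios factors (0.075), quantile normalization (0.071) or limma-voom (0.18), nor *Lrrc8a* without the first control (0.31) or first CD70Tg Tconv library (0.14). The receptors of ATP and other nucleotides had 5 of 14 genes tested, and 0 passed in either subset. The largest log2 fold changes were those of *P2ry14* in Tregs (0.61, adjusted p = 0.46) and *P2rx4* in Tconvs (-0.31, adjusted p = 0.34). *P2ry13*, an ADP receptor, had the largest distance between the subsets in control mice among the 5 tested (1.89 higher in Tregs, adjusted p = 0.0022). Its values were 17 and 19 in control Tconvs and 73 and 88 in control Tregs. Only Treg libraries reached the minimum value for testing, so *P2ry13* was selected through the subset in which it was higher. Its rank and p-value are therefore given as a description only. *P2rx7*, the ATP-gated channel, was 2.92-fold higher in control Tregs than in control Tconvs (log2 fold change 1.55, adjusted p = 3.1e-06), with 5256 and 5110 in control and 3762 and 3458 in CD70Tg Tregs (-0.52, adjusted p = 0.083).

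Downstream of the receptor, all 23 genes of the cyclic AMP arm were tested. In Tconvs 3 rose, the phosphodiesterases *Pde4d* (0.62, limma adjusted p = 0.016) and *Pde7a* (0.61, adjusted p = 0.021), which degrade cyclic AMP, and the adenylyl cyclase *Adcy3* (0.53, adjusted p = 0.019), which makes it. In Tregs *Pde3b* (0.82, adjusted p = 0.0084) and *Pde4d* (0.54, adjusted p = 0.041) rose and the protein kinase A subunit *Prkacb* fell (-0.43, adjusted p = 0.043). Each of these missed 0.05 without at least 1 library. In Tconvs these were the second control and second CD70Tg library for *Pde4d* (0.21 and 0.18), the first control and second CD70Tg library for *Pde7a* (0.15 each), and both controls and the second CD70Tg library for *Adcy3* (0.085, 0.078 and 0.17). In Tregs they were the first control for *Pde3b* (0.12), any library for *Pde4d* (0.12 to 0.26), and the first control and both CD70Tg libraries for *Prkacb* (0.49, 0.22 and 0.14). In Tregs, limma-voom on reads left none of these 3 under 0.05, with an adjusted p of 0.54 for *Pde3b*, 0.33 for *Pde4d* and 0.15 for *Prkacb*. *Prkacb* was also lost with a pseudocount of 1 (0.051) and with median-of-ratios factors (0.067). *Pde3b* had the largest distance between the subsets of all 65 genes, with 3158 and 4290 in control Tconvs and 78 and 97 in control Tregs (log2 fold change -5.32, adjusted p = 4.9e-12). In CD70Tg Tregs it was 157 and 158. In these libraries 3 reads give 14.5 and 13.1 (control) and 31.2 and 16.3 (CD70Tg). Few reads therefore stand behind the Treg increase of *Pde3b*. The other adenosine receptors, *Adora1*, *Adora2b* and *Adora3*, were between 0 and 21 in all libraries and were not tested. Thus *Adora2a* was the only adenosine receptor gene with values high enough to test.

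Of the 4 tested relatives of *Dpp4*, 0 passed in either subset with the transgene. The largest log2 fold changes were those of *Prep* in Tregs (-0.37, limma adjusted p = 0.14) and *Dpp8* in Tconvs (0.22, adjusted p = 0.38). *Dpp7*, a lysosomal peptidase, was higher in Tregs than in Tconvs in control mice (0.92, adjusted p = 0.0076). Of 5 intracellular nucleotidases (*Entpd4*, *Entpd5*, *Entpd6*, *Entpd7* and *Cant1*), 0 passed with the transgene. *Entpd5* was lower in Tregs in control mice (-1.11, adjusted p = 5e-06) where *Entpd1* was higher.

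The nearest tested protein-coding genes to *Entpd1* did not pass the test in either subset. *Tctn3*, 0.1 kb before it, had log2 fold changes of 0.21 in Tconvs (limma adjusted p = 0.78) and -0.43 in Tregs (0.41), and *Cc2d2b*, 7.2 kb after it, of -0.71 (0.57) and -0.91 (0.37). Beside *Nt5e*, *Snx14*, 4.7 kb after it, had 0.23 in Tconvs (0.43) and 0.08 in Tregs (0.81), and the next tested gene before it, *Cep162*, is 1071.7 kb away and rose in Tconvs (0.72, adjusted p = 0.035). *Adora2a* lies between *Specc1l* (0.00 in Tconvs, -0.07 in Tregs, neither passed) and *Gucd1*, which fell in Tconvs (-0.50, adjusted p = 0.019). Near *Dpp4*, *Gcg*, which encodes glucagon and its related peptides, begins 62.3 kb away and rose in both subsets (5.53, adjusted p = 1.2e-06 in Tconvs, 1.91, adjusted p = 0.029 in Tregs). GLP-1, one of these peptides, is a substrate of CD26. *Psmd14*, 529.7 kb away on the other side of *Dpp4*, had -0.07 in Tconvs (adjusted p = 0.87) and 0.02 in Tregs (0.95). *Pkig*, an inhibitor of protein kinase A that lies 0.4 kb from *Ada*, rose in Tregs (1.41, adjusted p = 0.033) and had 0.42 in Tconvs (adjusted p = 0.65). *Ywhab*, 244.7 kb away on the other side of *Ada*, had -0.06 in Tconvs (0.85) and 0.03 in Tregs (0.92).

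The genes whose log2 values followed those of each gene most closely over the 8 libraries are given as a description. The libraries share 4 groups, so that a few group means fix most of these correlations. For *Entpd1* these were the microRNA gene *Mir8107* (Pearson r = 0.993), at values no higher than 115 on average,, *Osbpl3* (0.991), which encodes an oxysterol-binding protein, and *Parp14* (0.989), an ADP-ribosyltransferase. *Osbpl3* had group means of 186.5 and 1538 in control and CD70Tg Tconvs and 1893.5 and 3179 in control and CD70Tg Tregs, which are near those of *Entpd1*. *Nt5e* was followed by *Frmd6* (0.997), *Zfp445* (0.997) and the splicing factor gene *Sf3b1* (0.992), and *Adora2a* by *Inppl1* (0.996), a lipid phosphatase gene, *Fam129b* (0.994) and *Ppp1r16a* (0.994). *Dpp4* had lower values with its nearest genes, *Arhgap26* (0.973), *Pogk* (0.970) and the adaptor gene *Lax1* (0.945). For *Ada* they were *Nek6* (0.984), *Cdk9* (0.983) and *Ttll3* (0.981).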

How the data were processed

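CD4+ T cells were enriched by negative selection, with anti-CD25 in the depletion mix for Tconvs only, and sorted. Ovation SoLo libraries were sequenced on a NovaSeq. The authors trimmed reads with Trimmomatic 0.36, mapped them to mm10 with STAR 2.5.3 and counted with HTSeq 0.9.1. The deposited score values are these counts scaled by the authors to 20 M per library and rounded up (column totals 19963628 to 20164600). Columns are named KO for the controls, labelled WT by sample and CD27+/- in the methods. Columns were assigned to groups by these names.

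The 4131 rows named after genomic clones were left out, and of 97 names on several rows the one with the largest total was kept, which left 48404 genes. Reads per library were recovered from the step between low values. The steps of the first control and second CD70Tg Tconv libraries (1.025 and 0.601) are less certain. Because the values are scaled and rounded, a count model was not the main test. Genes at 60 or more in at least 2 libraries were tested with limma 3.58.1 (R 4.3.3, trended prior variance) on log2(value + 5), with 1 coefficient for each of the 4 groups, and Benjamini-Hochberg adjustment over all 12798 genes in each contrast. Genes with an adjusted p under 0.05 passed, and those also over 1 in absolute log2 fold change were called. For the difference between the responses, called means an adjusted p under 0.05 alone. Fold changes on this scale understate the change of low genes. Positions are from GENCODE M21, which holds 99.7% of the identifiers. Promoter windows are from RefSeq.

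Named pathway genes were those called with the transgene, the largest change in a list without a call, the largest subset difference of a list, the nearest tested protein-coding gene on each side and the 3 closest by Pearson correlation. The remaining genes that passed, and *Ampd2*, *Adk*, *Osbpl3*'s group means, *P2rx7* and the single cell type markers, were picked after their values were seen. The genes and lists were chosen with earlier results of these data known. Alternatives were pseudocounts of 1 and 20, no minimum, a mean of at least 60, more than 10 in every library, median-of-ratios factors, quantile normalization, limma-voom on reads, the 4 libraries of a contrast alone, keeping clone-named rows, no fold threshold, an adjusted p under 0.01, and leaving out each library.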

Additional observations from a re-analysis of the deposited data

Results flagged for a closer look

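Between the subsets, the responses to the transgene differed in 2 genes of the pathway by the test of the difference itself. Such a difference passed in 1.02% of all genes tested, the response being lower in Tregs in 106 and higher in 24. *Entpd1* differed by -2.61 on the log2 scale (Tregs minus Tconvs, 0.66 against 3.27, limma adjusted p = 3.5e-05), and its adjusted p was between 7.2e-06 and 0.065 over 17 alternatives. *Cd38* differed by -2.62 (0.34 against 2.96, limma adjusted p = 0.00041), with adjusted p-values between 7.6e-05 and 0.16. In both, the only alternative that did not pass was the one with no minimum value. Both genes were lower in control Tconvs than in any other group.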

How the results depend on the processing

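No paired analysis was possible because replicate numbers stand in the sample titles but not in the column names. For the 5 genes in the 5 contrasts, 437 of the recomputed values kept their direction and their side of the threshold, 18 no longer passed, 9 newly passed and 6 changed sign. The changes of sign were in log2 fold changes near 0. In Tconvs *Nt5e* was 0.18 without the first control and 0.01 without the second CD70Tg library (-0.41 to 0.18 over the left-out libraries), and *Ada* was 0.04 with limma-voom, 0.02 without the first control and 0.16 without the first CD70Tg library (-0.23 to 0.16). The difference of *Adora2a* was 0.11 without the second CD70Tg Tconv library (-0.63 to 0.11). The cause was not tested. *Entpd1* in Tconvs passed in all 18 alternatives (2.98 to 3.56). In Tregs it no longer passed with limma-voom or no minimum value (adjusted p = 0.12 each). Between the subsets, *Ada* in control mice newly passed with median-of-ratios factors (0.024), quantile normalization (0.0067) and 4 libraries alone (0.036), and *Dpp4* in CD70Tg mice with the first 2 (0.044 and 0.037).

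Among the 5 genes, no fold threshold gave 2 calls in Tregs, 2 in Tconvs and 3 between the subsets in CD70Tg mice, and no minimum value gave 0 for the difference. Of the other 65 tested pathway genes, no fold threshold called 6 in Tregs, 9 in Tconvs, 34 between the subsets in control and 31 in CD70Tg mice. In the same order, that rule called 7.4%, 8.8%, 45.9% and 42.7% of all genes tested. Of the other pathway genes, no minimum value called 2 in Tregs, 2 in Tconvs and 0 for the difference, and limma-voom 0 in Tregs. With no minimum value, *Slc17a9*, *Slc29a1* and the 3 cyclic AMP genes that passed in Tregs (adjusted p = 0.065 to 0.14), and all Tconv passes except *Cd38* and *Ampd3* (0.091 to 0.28), were lost. With 4 libraries alone *Pde3b* in Tregs (0.13), *Lrrc8a* (0.06) and *Adcy3* in Tconvs (0.061) were lost. Leaving out 1 library gave 1 to 2 of the 5 genes in Tconvs (2 without the first CD70Tg library), 1 to 2 for the difference (2 without the first control Tconv library) and 1 to 3 between the subsets in CD70Tg mice (3 without the second CD70Tg Tconv library). For the difference, calls need no fold threshold. It gave 2 to 4 of the other pathway genes in Tconvs (2 without the second control library) and 1 to 2 for the difference (2 without the first control Tconv library). With 2 libraries a group, and 17 to 41 reads behind *Ada* in Tregs, small changes cannot be told from none.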
